A study of Mus musculus with 6 samples.

Results

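The alpha-arrestin genes Arrdc1, Arrdc2, Arrdc3, Arrdc4 and Txnip were followed in the whole brain of wild-type male mice of the inbred C57BL/6J strain. PS mice received polystyrene nanoplastics, particles of a common plastic polluting the environment, through the nose for 28 days. Control mice received sterile distilled water through the nose over 28 days. Each group held 3 RNA sequencing libraries, 6 in all, and the labels do not tie each library to an animal of its own, so any spread between libraries may be partly technical. The genes were taken by name: the family was picked by symbol from the 27378 genes of each table, all 5 members were found, and all 5 passed the minimum for testing, a mean of at least 1 FPKM (fragments per unit of gene length and of library depth). The choice of this family was made with the PS and Control values of its members already known, so their differences between the groups are given below as a description, without a p-value, and support nothing beyond these libraries.

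Alpha-arrestins are adaptor proteins built on the arrestin fold. Through proline-rich motifs in their tails they bring ubiquitin ligases of the Nedd4 family to receptors and transporters at the cell membrane, which are then taken inside. Txnip, the thioredoxin-interacting protein, also binds and blocks thioredoxin, a reducing protein of the cell, and lowers glucose uptake by drawing glucose transporters off the membrane. Txnip and its close relative Arrdc4 are known for being switched on by sugar through the transcription factors MondoA and ChREBP, which act with their partner Mlx on carbohydrate response elements, paired copies of an E-box-like sequence. Arrdc3 is known as an adaptor for G-protein-coupled receptors, and Arrdc1 for driving the budding of small vesicles from the plasma membrane with the help of Tsg101. Arrdc2 is the least studied of them.

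The 250 bases before the gene start are shown for Txnip and Arrdc2, the 2 genes of the family whose PS and Control values did not overlap, and for Arrdc4, the sugar-responsive relative of Txnip. The sequences are those of RefSeq on build GRCm38.p6, whereas the submitters' processing notes name GRCm39 for the reads, so they were tied to the measurements by symbol only. They lie at chr3:96557707-96557956 on the plus strand for Txnip, chr8:70839721-70839970 on the minus strand for Arrdc2 and chr7:68749239-68749488 on the minus strand for Arrdc4, and run 5′ to 3′ towards the gene. Capitals mark matches, on either strand, to the carbohydrate response element (CACGNG, 5 bases of any kind, then CNCGNG), the E-box (CACGTG), the CCAAT box (CCAAT) and a FoxO site (GTAAACA).
Txnip: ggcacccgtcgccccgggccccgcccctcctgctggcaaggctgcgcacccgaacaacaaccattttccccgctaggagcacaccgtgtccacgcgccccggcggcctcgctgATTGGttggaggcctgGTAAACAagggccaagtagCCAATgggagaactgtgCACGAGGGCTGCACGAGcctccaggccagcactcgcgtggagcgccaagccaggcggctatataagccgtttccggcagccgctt
Arrdc2: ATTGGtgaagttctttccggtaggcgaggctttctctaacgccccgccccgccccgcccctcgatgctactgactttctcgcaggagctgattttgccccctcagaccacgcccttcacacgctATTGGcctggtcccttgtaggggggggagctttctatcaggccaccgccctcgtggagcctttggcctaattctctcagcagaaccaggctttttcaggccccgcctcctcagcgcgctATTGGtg
Arrdc4: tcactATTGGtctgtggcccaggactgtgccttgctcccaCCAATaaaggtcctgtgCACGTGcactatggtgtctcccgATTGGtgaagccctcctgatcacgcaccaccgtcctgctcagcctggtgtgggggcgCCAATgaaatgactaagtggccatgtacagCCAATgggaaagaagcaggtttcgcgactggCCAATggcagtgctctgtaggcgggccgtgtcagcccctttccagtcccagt

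The Txnip window held 1 carbohydrate response element, starting at -85 from the gene start. This motif was found in 92 of 32851 windows of the same length, or 0.28%. It also held CCAAT boxes at -137 and -102 and a FoxO site at -121, motifs present in 33.8% and 3.17% of all windows. The Arrdc2 window held CCAAT boxes at -250, -126 and -7 and none of the other motifs in capitals. Arrdc4 had 6 CCAAT boxes and 1 E-box, at -193, where 6.02% of all windows held an E-box. In the window of the first listed start of Arrdc3, 1 CCAAT box was found, at -173, and in that of Arrdc1 none of the motifs in capitals. Neither the full glucocorticoid response element (AGAACA, 3 bases of any kind, then TGTTCT, in 0.00913% of windows) nor its first arm alone (AGAACA, in 16.1%) was matched in any window of the 5 genes. Of the hypoxia core only the form ACGTG (in 16.6%) was looked for, and the form GCGTG was not, so genes without a match may still hold the core. ACGTG was matched in the Arrdc4 window, where both matches overlap the E-box. It was also matched in the window of 1 of the 2 further listed starts of Arrdc3, at -205. A match here is only a run of letters and does not show that a factor binds, and a window without a match says nothing of sites elsewhere in the gene.

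**Figure D1:**
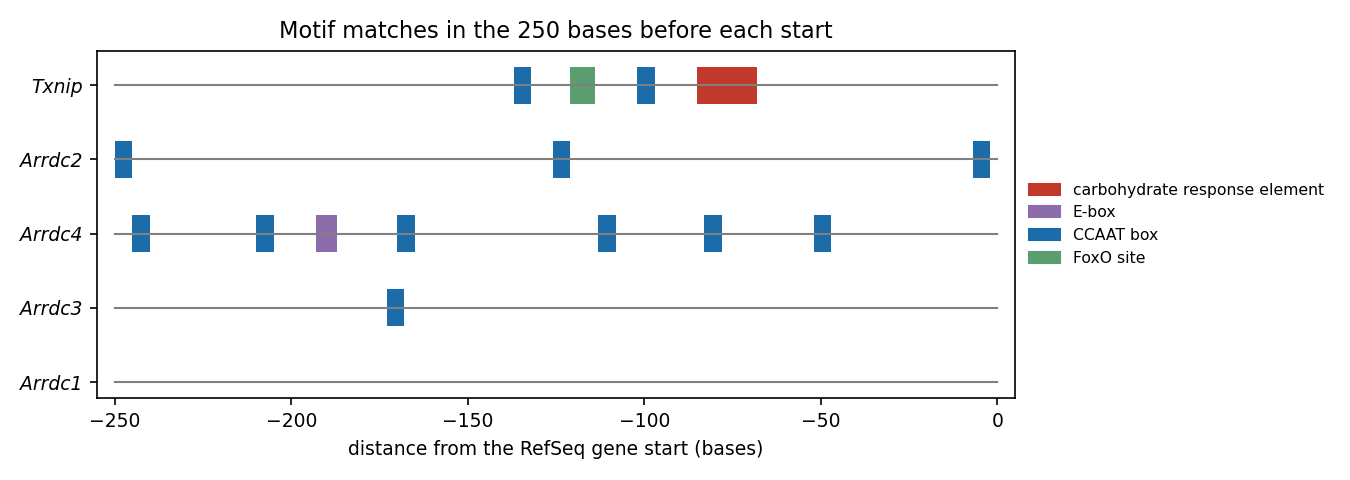
Each line is the stretch of 250 bases before the RefSeq start of 1 gene, with the distance from that start in bases on the horizontal axis, and each coloured block is 1 motif match. The single carbohydrate response element, at -85, stands on the Txnip line, Arrdc4 carries 6 CCAAT boxes and an E-box, and the Arrdc1 line is empty.

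Txnip and Arrdc2 were lower in every PS library than in any Control library, a separation seen in 6.33% of all tested genes, and Arrdc1, Arrdc3 and Arrdc4 overlapped between the groups. All 5 log2 fold changes (PS over Control, taken as log2(FPKM + 1), so that changes of low genes come out too small) were negative, with a median of -0.15, where 48.6% of the 12229 tested genes were negative and the median of all was 0.003. In the limma fit over all tested genes, 0 of the 5 passed an adjusted p of 0.05, against 20 of 12229 genes, or 0.164%, that were called, all lower. That one-sidedness did not hold under every setting: with sample weights 335 genes were lower and 297 higher, and without Control replicate 3 it was 49 lower and 17 higher. At an unadjusted p under 0.05 it was 2 of the 5, Arrdc2 and Txnip, where 3.29% of all genes were lower at that level. Limma-voom on the reads behind the FPKM values also called 0 of the 5, and 0.237% of all genes lower. With the replicate number as a block, Arrdc2 was past the adjusted threshold, 1 of 5 members, where 0.368% of all genes were called lower, and with sample weights Arrdc2 and Txnip were, 2 of 5, where 2.74% were. Since the contrast chose the family, these shares are background and nothing is read from them.

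Arrdc2 had 8.98, 9.26 and 10.4 FPKM in PS replicates 1, 2 and 3, against 15.4, 11.4 and 17.3 FPKM in Control replicates 1, 2 and 3. The PS libraries lay close together and under all Control libraries, while Control replicate 2 stood nearest to them. The mean was 9.53 ± 0.726 FPKM in PS and 14.7 ± 3.02 FPKM in Control brains (SD, n = 3 each), 35.1% lower in PS. The log2 fold change was -0.56 (SE 0.13, 95% interval -0.85 to -0.26), and 45 of the 12229 tested genes had a lower one. Without Control replicate 2, the lowest of its group, the log2 fold change was -0.72 and Arrdc2 passed the adjusted threshold, where 0.147% of all genes were called lower. Leaving out another library gave between -0.44 (without Control replicate 3) and -0.61, none of them past it.

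Txnip had 16.0, 15.4 and 14.9 FPKM in PS replicates 1, 2 and 3, against 18.4, 17.01 and 21.7 FPKM in Control replicates 1, 2 and 3. The groups did not overlap, but the gap between PS replicate 1 and Control replicate 2 was small beside the spread of the Control libraries. Its mean was 15.4 ± 0.573 FPKM in PS and 19.1 ± 2.41 FPKM in Control (SD, n = 3 each), 19.0% lower in PS. A log2 fold change of -0.28 was fitted (SE 0.086, 95% interval -0.48 to -0.086). It stayed negative whichever library was left out, between -0.36 and -0.19, and 161 tested genes had a lower value. In RefSeq the Txnip locus overlaps the noncoding gene Gm15441, which stood at 0.0445 to 0.119 FPKM in PS and 0.0301 to 0.0603 FPKM in Control, far under Txnip. The sources used here do not say whether reads were counted by strand, so reads of Txnip and Gm15441 cannot be told apart with certainty.

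Arrdc4, which shares the sugar response with Txnip, did not share its separation. It had 1.71, 1.86 and 1.85 FPKM in PS replicates 1, 2 and 3, against 1.55, 1.73 and 2.38 FPKM in Control replicates 1, 2 and 3. The PS libraries lay between Control replicate 1 and Control replicate 3. The fitted log2 fold change, -0.03 (SE 0.11, 95% interval -0.28 to 0.21), was near 0, and the sign turned without Control replicate 3, to 0.09, and with sample weights, to 0.12. At a pseudocount of 0.1, which shrinks low genes less, the 95% interval of Arrdc4 was -0.40 to 0.32. That interval holds the Txnip log2 fold change at the same setting, -0.30. A difference between Arrdc4 and Txnip in their change was therefore not shown. Arrdc4 was also the gene with the largest relative spread among Control libraries, a coefficient of variation of 23.1%, against 4.76% in PS.

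Arrdc3 had 13.1, 12.05 and 13.4 FPKM in PS replicates 1, 2 and 3, against 14.5, 12.9 and 15.9 FPKM in Control replicates 1, 2 and 3. Control replicate 2 lay below 2 of the PS libraries, so the groups overlapped, although the mean was 10.9% lower in PS. Its fitted log2 fold change was -0.15 (SE 0.082, 95% interval -0.34 to 0.03). Without Control replicate 3 it was -0.08.

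Arrdc1 had 1.90, 1.93 and 2.06 FPKM in PS replicates 1, 2 and 3, against 2.07, 1.86 and 2.50 FPKM in Control replicates 1, 2 and 3. The PS values stood inside the Control range. The fit gave a log2 fold change of -0.08 (SE 0.089, 95% interval -0.28 to 0.12), and 0.001 without Control replicate 3.

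**Figure D2:**
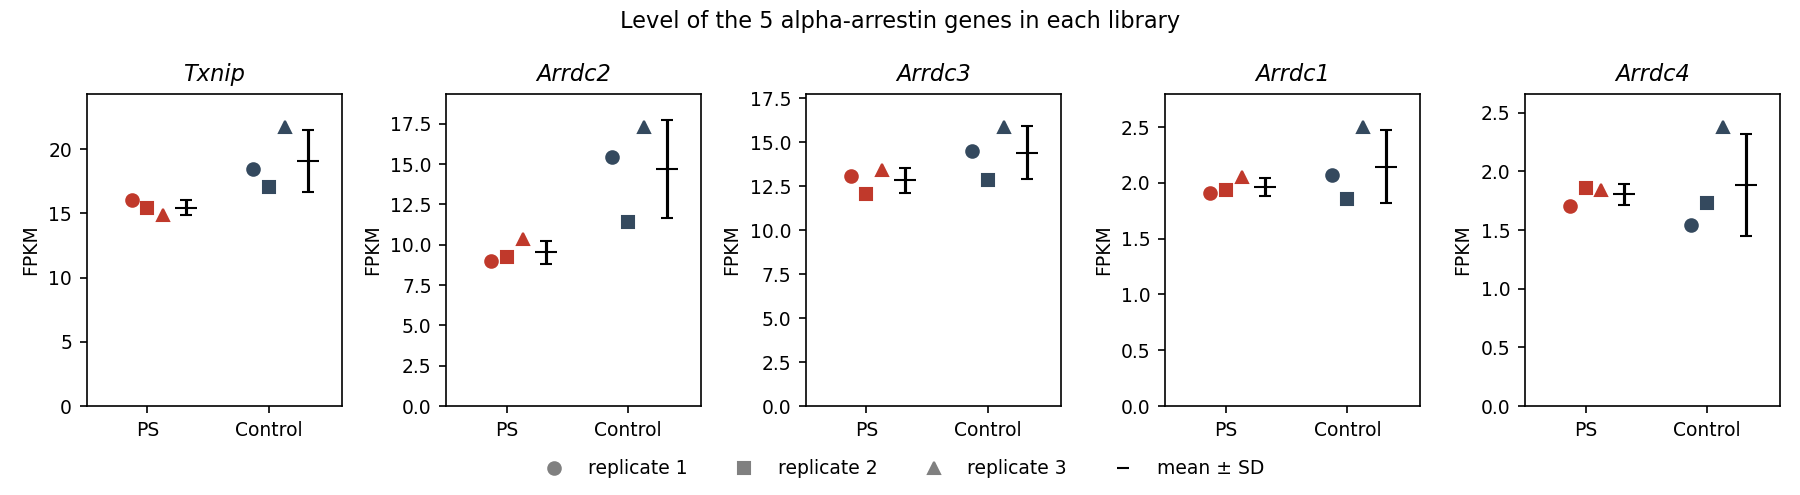
FPKM of each gene in each library, with its own vertical axis from 0, PS on the left and Control on the right of each panel; marker shapes give the replicate number and black bars the mean ± SD of 3 libraries. Txnip and Arrdc2 show PS libraries under all Control libraries, and Control replicate 3 is the highest point in all 5 panels.

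The spread among the Control libraries was alike in part over the 5 genes. It is described from the member values already known when the family was chosen, and nothing is read from the shares. Control replicate 3 was the highest of the 6 libraries for all 5 genes, as it was for 23.0% of all tested genes. Control replicate 2 was the lowest Control library for 4 of them, Arrdc4 being the exception, against 41.9% of all tested genes. The coefficient of variation was higher in Control than in PS for all 5, from 10.5% for Arrdc3 to 23.1% for Arrdc4 in Control and from 3.71% for Txnip to 7.61% for Arrdc2 in PS. Over all tested genes 68.4% had the higher coefficient in Control. Reads were not the limit for the abundant members: the fewest reads behind a value were 1668 for Txnip, 914 for Arrdc2 and 2604 for Arrdc3, which gives a counting error of 2.45%, 3.31% and 1.96%. For Arrdc1 and Arrdc4 the fewest were 169 and 243 reads, a counting error of 7.69% and 6.42%, so the scatter of these 2 genes among PS libraries was no larger than counting alone gives. These counting errors cover sampling of reads only.

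**Figure D3:**
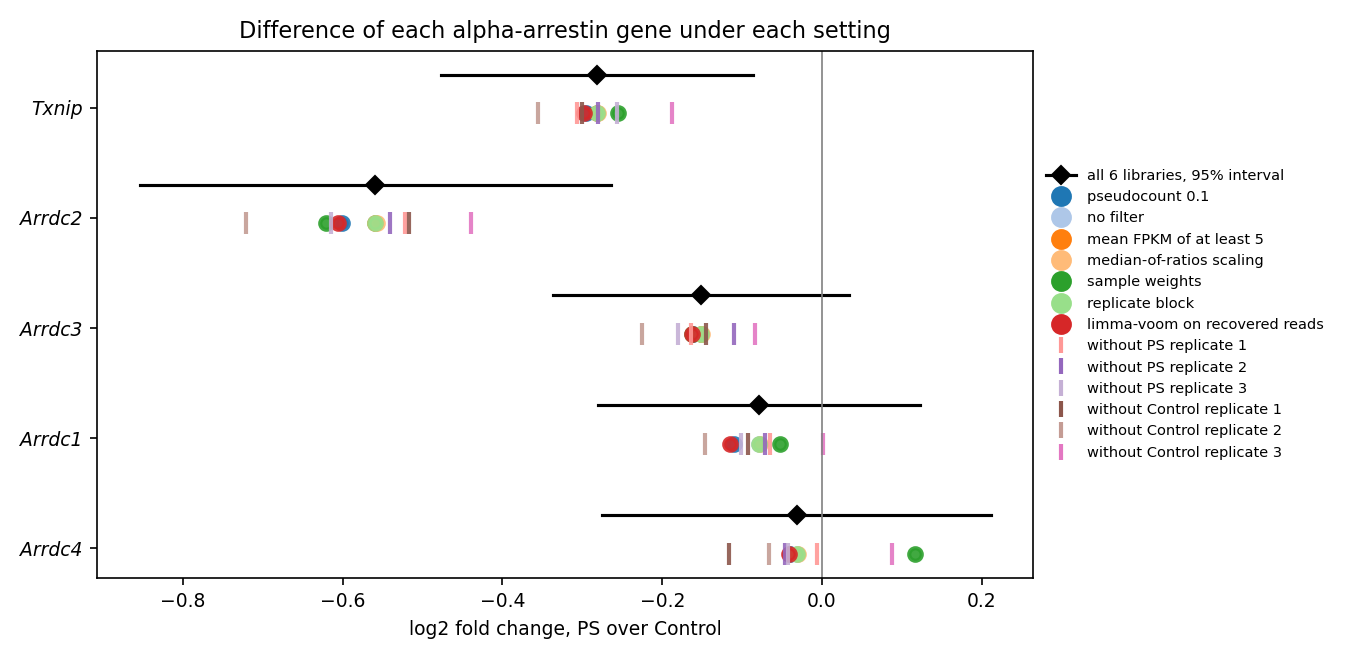
Log2 fold change of each gene, PS over Control, with all 6 libraries (diamond, with its 95% interval) and under each other setting (dots, or ticks for fits with 1 library left out). All values of Arrdc2, Txnip and Arrdc3 lie left of 0, while Arrdc4 has values on both sides and Arrdc1 reaches 0.001.

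Per length of gene, Txnip was the most abundant member in each of the 6 libraries, and Arrdc1 and Arrdc4 were the scarcest. In PS brains the order by mean FPKM was Txnip, Arrdc3, Arrdc2, Arrdc1 and Arrdc4, and the ranges of neighbours did not overlap. In Control brains Arrdc2 stood between Txnip and Arrdc3, its range overlapping both (that of Txnip no longer after median-of-ratios scaling), and the ranges of Arrdc1 and Arrdc4 overlapped as well. The change of place lies between Arrdc2 and Arrdc3. Arrdc2 over Arrdc3 was 0.688, 0.768 and 0.773 in PS replicates 1, 2 and 3, against 1.06, 0.886 and 1.09 in Control replicates 1, 2 and 3. A ratio within a library does not depend on how libraries are scaled to each other. It is made of member values known when the family was chosen, and was not set beside ratios of other tested genes. All 3 PS ratios were under the 3 Control ratios, and Control replicate 2, with Arrdc3 above Arrdc2, had the PS order. Arrdc2 over Txnip overlapped between the groups, at 0.561 to 0.696 in PS and 0.669 to 0.836 in Control.

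Summed over the family, the level was 41.7, 40.5 and 42.5 FPKM in PS replicates 1, 2 and 3, against 52.0, 44.8 and 59.8 FPKM in Control replicates 1, 2 and 3. PS libraries were alike and all under the Control libraries, which differed among themselves by more than the gap. Arrdc2 made up 21.6 to 24.3% of the family sum in PS and 25.4 to 29.7% in Control, and Txnip 34.99 to 38.4% in PS and 35.5 to 37.9% in Control. The share of Txnip overlapped between the groups. The shares of the other genes did not: that of Arrdc2 was lower in PS, and those of Arrdc1 (4.57 to 4.83% in PS and 3.99 to 4.18% in Control), Arrdc3 (29.8 to 31.5% in PS and 26.5 to 28.7% in Control) and Arrdc4 (4.09 to 4.597% in PS and 2.98 to 3.98% in Control) were higher in PS. Shares of 1 sum are not independent of each other. The mean FPKM of Arrdc1, Arrdc3 and Arrdc4 was itself lower in PS, by 8.31%, 10.9% and 4.39%, so a higher share is not a higher level. The sum and the shares restate the member values and are given as a description.

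**Figure D4:**
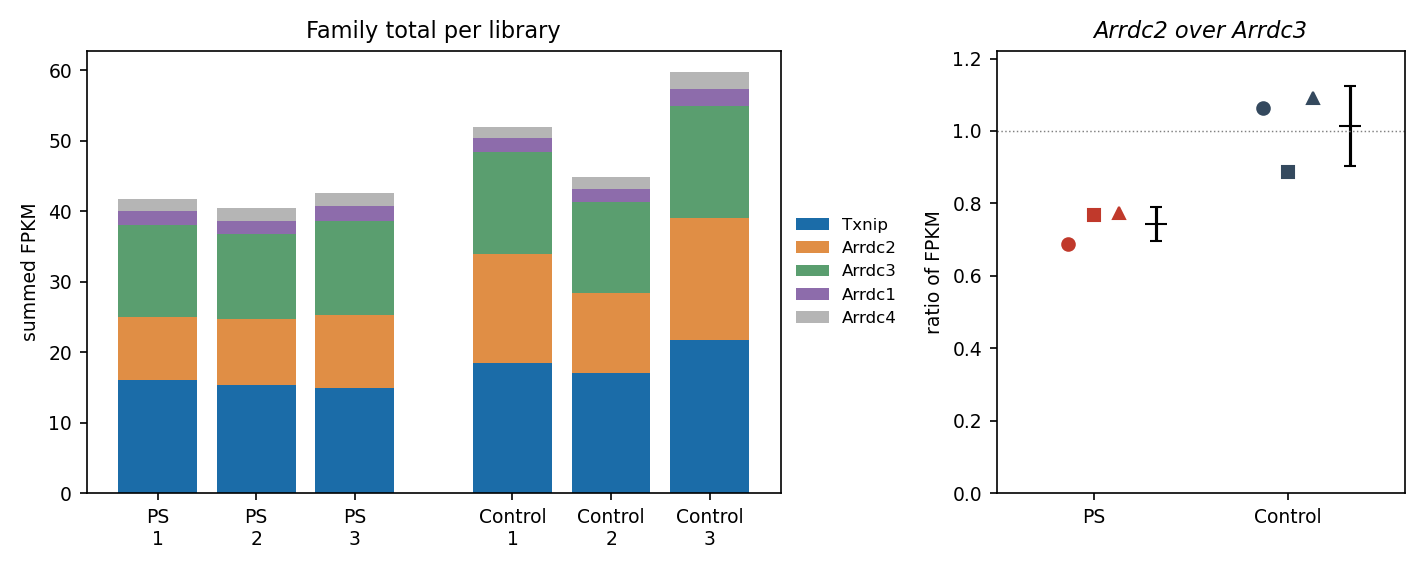
Left, summed FPKM of the 5 genes per library, stacked by gene, with PS libraries before Control libraries; right, the ratio of Arrdc2 to Arrdc3 within each library, with the mean ± SD of 3 libraries and a dotted line at 1. The family sum stays between 40.5 and 42.5 FPKM in PS and runs from 44.8 to 59.8 FPKM in Control, and all 3 ratios in PS are under those in Control.

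Genes around the family were followed in 10 lists from general knowledge, chosen with earlier results of these data known, and described by counts and medians. Adjusted p-values are those of limma over all 12229 genes. Among these 10 lists 3 genes passed, Sgk1, Errfi1 and Ddit4, all lower in PS and all of the glucocorticoid list. Limma-voom called 5, these with Cdkn1a and Nfkbia, the last named after its values were seen, and the replicate block 6, with Pdk4 besides.

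Of the transcription factors that sense sugar or compete for their sites, 14 of 16 were tested and 13 of these had a negative log2 fold change, with a median of -0.09. None passed the adjusted threshold, and 4 were lower at an unadjusted p under 0.05. Mlxip, which encodes MondoA, stood at 2.82, 2.38 and 2.66 FPKM in PS replicates 1, 2 and 3, against 3.11, 3.44 and 2.96 FPKM in Control replicates 1, 2 and 3. Its groups did not overlap (log2 fold change -0.20, SE 0.08, limma adjusted p = 0.771). The same was so for Mxd1, Max and Myc, given next, and for Tfe3, named after its values were seen. All PS values lay below all Control values in 6.33% of all tested genes. Mxd1, a repressor that pairs with Max, was at 5.55 ± 0.149 FPKM in PS and 6.50 ± 0.449 FPKM in Control (SD, n = 3 each; log2 fold change -0.19, limma adjusted p = 0.716). Max, the common partner of that network, was at 23.4 ± 0.51 FPKM in PS and 25.9 ± 1.21 FPKM in Control (limma adjusted p = 0.817), and Myc at 1.10 ± 0.0478 FPKM in PS and 1.44 ± 0.107 FPKM in Control (limma adjusted p = 0.716).

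Of the other sugar-responsive and glucose-handling genes 13 of 15 were tested, 8 with a negative and 5 with a positive log2 fold change, and a median of -0.03. None passed, and 4 were lower at an unadjusted p under 0.05. Slc2a1, the glucose transporter that Txnip draws off the membrane, was at 62.3, 62.1 and 71.8 FPKM in PS replicates 1, 2 and 3, against 91.0, 100.7 and 80.2 FPKM in Control replicates 1, 2 and 3. Control replicate 2 held the highest Slc2a1 of all libraries (log2 fold change -0.46, SE 0.092, limma adjusted p = 0.199). The summed endothelial markers, given below, were also highest there, at 80.5 FPKM. A link between Slc2a1 RNA and the alpha-arrestins was not tested. The glycolytic regulator Pfkfb3 was at 5.84, 6.22 and 6.54 FPKM in PS replicates 1, 2 and 3, against 9.73, 8.31 and 8.11 FPKM in Control replicates 1, 2 and 3 (log2 fold change -0.43, SE 0.08, limma adjusted p = 0.139). Klf10 and Bhlhe40, transcription factors that answer to sugar among other signals, had log2 fold changes of -0.29 and -0.28 (limma adjusted p = 0.542 and 0.716). The neuronal transporter Slc2a3 and hexokinase Hk1, picked for their roles after their values were seen, had log2 fold changes of -0.06 and 0.03.

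The partners through which alpha-arrestins act gave no call. All 12 genes of the thioredoxin system were tested, none had an unadjusted p under 0.05, and the median was 0.02. Thioredoxin reductase Txnrd1 was at 16.7 ± 0.654 FPKM in PS and 18.0 ± 0.936 FPKM in Control (log2 fold change -0.10, limma adjusted p = 0.918), while its mitochondrial relative Txnrd2 had a log2 fold change of 0.11 (limma adjusted p = 0.962). The peroxide-removing enzymes Prdx1 and Prdx2 had log2 fold changes of 0.09 and 0.04. Of 11 ligases and adaptors of the Nedd4 family none had an unadjusted p under 0.05, with a median of 0.005. Nedd4 itself was at 81.0 ± 2.59 FPKM in PS and 76.2 ± 3.64 FPKM in Control (log2 fold change 0.09, limma adjusted p = 0.941), and Smurf1, Smurf2 and Wwp2 had log2 fold changes of -0.09, -0.10 and 0.11. Nor did any of 10 genes of the vesicle budding machinery used by Arrdc1 (median -0.02): Tsg101 was at 41.2 ± 1.06 FPKM in PS and 42.3 ± 2.19 FPKM in Control (limma adjusted p = 0.983), and Vps37b, Vps4b and Pdcd6ip had log2 fold changes of -0.21, -0.11 and 0.05.

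Of membrane proteins known as alpha-arrestin cargo, in this or other tissues, 10 of 12 were tested and none passed, with a median of -0.002. Besides Slc2a1, Itgb4, an integrin subunit, had an unadjusted p under 0.05, on the higher side, at 2.85 ± 0.285 FPKM in PS and 2.18 ± 0.298 FPKM in Control (log2 fold change 0.28, SE 0.094, limma adjusted p = 0.692). The thrombin receptor F2r and the adrenergic receptor Adrb1 had log2 fold changes of 0.14 and -0.06 (limma adjusted p = 0.93 and 0.984). Of 10 symbols of other proteins of arrestin fold, 8 were found and 6 tested, with a median of 0.003 and no unadjusted p under 0.05. Dscr3, which was not found, is an older symbol of Vps26c and no further gene. The beta-arrestins Arrb1 and Arrb2, which switch off activated receptors, were at 45.5 ± 1.27 and 15.2 ± 0.753 FPKM in PS and at 43.6 ± 0.852 and 14.3 ± 1.31 FPKM in Control. Vps26b and Rgp1, which serve retrograde traffic, had log2 fold changes of -0.04 and 0.01.

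Of 17 glucocorticoid-responsive genes all were tested and 3 were called, all lower in PS, beside the 0.164% called among all tested genes. The list was drawn up with earlier results of these data known, so nothing is read from its share. All 3 calls were lost without PS replicate 1, without PS replicate 2, without Control replicate 1 and with no filter on low genes. The median was -0.27, 14 of 17 were negative and 9 were lower at an unadjusted p under 0.05. The 3 positive ones were Plin4, Nr3c1 and Sult1a1, with log2 fold changes of 0.14, 0.14 and 0.002. Sgk1, a kinase gene, had 35.4, 33.8 and 37.5 FPKM in PS replicates 1, 2 and 3, against 65.7, 55.9 and 66.4 FPKM in Control replicates 1, 2 and 3. The groups did not overlap (log2 fold change -0.80, SE 0.078, limma adjusted p = 0.00937). Its Control libraries had the order of Arrdc2, with replicate 3 highest and replicate 2 lowest, whereas in Errfi1, Ddit4 and Cdkn1a Control replicate 1 was highest and Control replicate 3 lowest. Errfi1, an inhibitor of the EGF receptor, and Ddit4, an inhibitor of mTORC1, had log2 fold changes of -0.59 and -1.03 (limma adjusted p = 0.0153 and 0.0176). Cdkn1a, a cell cycle inhibitor, had -0.66 (limma adjusted p = 0.0685, and 0.029 with the replicate block).

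The FoxO list, factors that insulin holds back and genes they raise in fasting, had 14 of 15 members tested, a median of -0.09 and no call, with 4 lower at an unadjusted p under 0.05. Pdk4, a brake on pyruvate use that is also in the glucocorticoid list, had 5.05, 3.49 and 4.62 FPKM in PS replicates 1, 2 and 3, against 7.28, 5.69 and 6.94 FPKM in Control replicates 1, 2 and 3. It was not called by the fit without a block and was with it (log2 fold change -0.51, SE 0.12, limma adjusted p = 0.356, and 0.0155 with the replicate block). Bcl6, Irs2 and Sesn1 had log2 fold changes of -0.32, -0.35 and -0.18 (limma adjusted p = 0.418, 0.572 and 0.631). Of the NLRP3 inflammasome, which Txnip protein is known to bind, only Casp1, Il18 and Nek7 of 7 genes were high enough to test, with log2 fold changes of -0.22, 0.10 and -0.06 and no unadjusted p under 0.05.

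**Figure D5:**
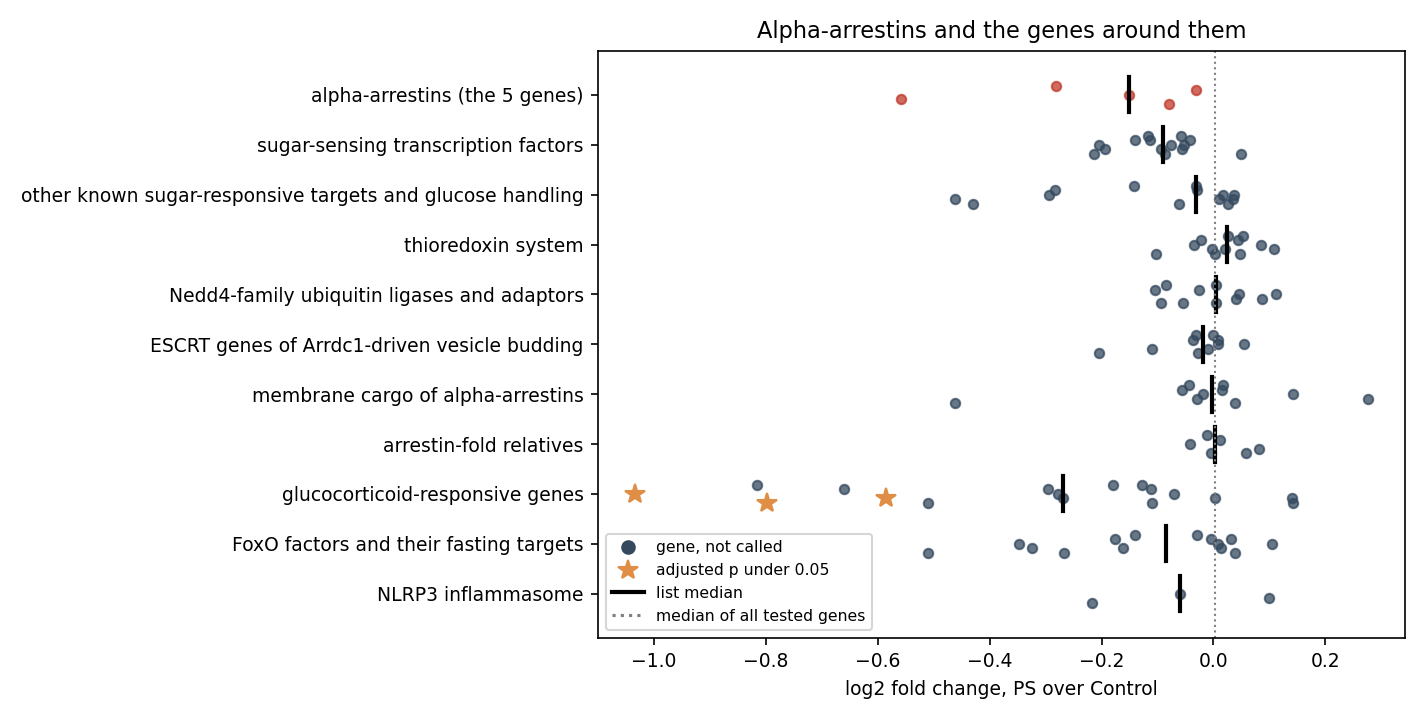
Log2 fold change, PS over Control, of each tested gene by list, with list medians as black bars, the median of all tested genes as a dotted line and genes with a limma adjusted p under 0.05 as stars. The 3 stars are Sgk1, Errfi1 and Ddit4 in the glucocorticoid list, which has the lowest list median, -0.27.

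The libraries held 39239183 to 40335590 reads. In 11 lists of cell type markers no marker was at 0 in any library, but at that depth a value above 0 does not show a cell type to be present. The neuronal markers summed to 1658 to 1811 FPKM in PS and 1705 to 1834 FPKM in Control. In 3 of the lists the summed level did not overlap between groups, as with Arrdc2 and Txnip. Endothelial markers, 7 of 8 lower, summed to 60.2 to 67.1 FPKM in PS and 69.0 to 80.5 FPKM in Control. Theirs was the only marker list with a gene called in the limma fit, 1 of 8. Red-cell markers, 5 of 5 lower, summed to 56.7 to 99.5 FPKM in PS and 127 to 196 FPKM in Control, and oligodendrocyte precursor markers, 1 of 6 lower, to 47.4 to 48.5 FPKM in PS and 39.8 to 40.5 FPKM in Control. Within the Control group the order of Arrdc2 and Txnip, with replicate 3 highest and replicate 2 lowest, was also that of 3 of the 11 sums. Oligodendrocyte markers, 0 of 6 lower, summed to 1522, 1416 and 1592 FPKM in PS replicates 1, 2 and 3, against 1376, 1039 and 1486 FPKM in Control replicates 1, 2 and 3. Ependymal markers, 1 of 6 lower, summed to 26.3, 23.3 and 24.3 FPKM in PS, against 23.7, 15.6 and 28.2 FPKM in Control, in the same order of replicates. The third was that of the oligodendrocyte precursors, at 40.3, 39.8 and 40.5 FPKM in Control replicates 1, 2 and 3. These values lie so close together that their order says little. The astrocyte and choroid plexus sums were lowest in Control replicate 2 as well, choroid plexus at 783 to 1298 FPKM in PS and 635 to 1105 FPKM in Control, while 4 sums, among them the endothelial one at 80.5 FPKM, were highest there. The part of these cell types in the values of the alpha-arrestins was not tested, and in whole tissue fewer cells of a type and less RNA per cell cannot be told apart.

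The genes whose values over the 6 libraries were most like those of each member were looked up by Pearson r of log2(FPKM + 1), as a description over 6 libraries of similar depth that fall into 2 groups. They are the top 3 of 741 candidates for Arrdc2 and of 742 for each other member. Over 6 libraries a search of that size can reach a high r among unrelated genes, which was not tested. For Arrdc2 the genes were Ifi27l2a (r = 0.969), Ada (r = 0.935) and Sgk1 (r = 0.934), which hold the difference between the groups as Arrdc2 does. Of these, 2 stood near the minimum of 1 FPKM. Ifi27l2a was at 0.594 to 1.02 FPKM in PS and 1.13 to 1.69 FPKM in Control. Ada was at 0.757 to 0.865 FPKM in PS and 0.987 to 2.07 FPKM in Control. For Txnip the genes were Ada (r = 0.968), the mitochondrial gene listed as COX2 (r = 0.93) and Arrdc2 (r = 0.915). For Arrdc3 the genes were Cenpw (r = 0.966), Ada (r = 0.938) and again Arrdc2 (r = 0.91). Arrdc1 was most like Xpa, Hmgb3 and Cirbp (r = 0.945, 0.94 and 0.937), and Arrdc4 like Fbxw9, Xpa and Gstt2 (r = 0.936, 0.933 and 0.925). Xpa, a DNA repair gene on both lists, stood at 5.99, 6.26 and 6.62 FPKM in PS replicates 1, 2 and 3, against 5.88, 5.52 and 9.59 FPKM in Control replicates 1, 2 and 3. Its values set Control replicate 3 apart from the other 5 libraries and not the groups from each other.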

How the data were processed

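RNA of 6 whole-brain libraries (3 PS, 3 Control, grouped by their titles) was measured. The authors deposited FPKM values, 1 table for each library. The submitters' processing notes name fastp, HISAT2, HTSeq, R 3.2.0 and build GRCm39, with neither order nor settings. The steps of the FPKM values gave whole reads, within 0.02 reads, for 26555 of the 26556 genes above 0, and these reads served for depth and for 1 alternative.

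Genes with a mean of at least 1 FPKM (12229) were fitted as log2(FPKM + 1) with limma 3.58.1 in R 4.3.3 (group only, variance trend, two-sided, Benjamini-Hochberg over all tested genes), and called under an adjusted p of 0.05. With 3 libraries against 3 the smallest exact permutation p is 0.1, so no such test was made. In a simulated PS over Control comparison of 12180 genes, 96.0% of 2-fold and 71.4% of 1.5-fold changes were called. Of the calls, 6.25% fell on unchanged genes, and 0 genes were called when none was changed. Each gene was drawn on its own, without shifts that the genes of a library share. These rates therefore need not hold for the real libraries.

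Same-numbered libraries deviated together from their group means (r = 0.181, 0.185 and 0.161, mean 0.176), each above 0.1. Matching the libraries otherwise gave a mean r of -0.166 to 0.0326. The labels give no pairing, so the main fit used the group alone and the replicate block is an alternative. Blocked values are given where a call changes. The block was drawn from the same values that it then fits, so a call made only with it is not separate evidence. Libraries of a group differed by more than sampling noise (a chi-square of 8.57 to 31.6 per degree of freedom). The members and lists were chosen with earlier results of these data known. Named were the 5 members, up to 4 tested genes per list with the lowest unadjusted p, and for each member the 3 genes with the highest Pearson r among those with an SD of at least 0.2, predicted genes passed over. Arrdc5 was looked up but is not among the genes with FPKM values, so it was not analysed here. Alternatives were a pseudocount of 0.1, other filters, median-of-ratios scaling, sample weights, the replicate block, limma-voom and each library left out.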

Additional observations from a re-analysis of the deposited data

How the results depend on the processing

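All genes called numbered 20 in the fit given above, 1 (higher in PS) with no filter, 9 at a mean FPKM of at least 5, 632 with sample weights, 48 with the replicate block, and 0 to 66 with 1 library left out. Members called numbered 2 with sample weights (Arrdc2 and Txnip, both lower), 1 with the replicate block (Arrdc2), and 0 to 1 with 1 library left out. List genes called numbered 0 with no filter, 18 with sample weights, 6 with the replicate block, 5 by limma-voom, and 0 to 5 with 1 library left out. No log2 fold change of a member moved by as much as the SD between its replicates under any setting tried, though the sign turned for Arrdc1 and Arrdc4 as given above; Arrdc1 and Arrdc4 had no value at a mean FPKM of at least 5. The order of levels held after rescaling and by medians, with the Control ranges of Txnip and Arrdc2 apart after rescaling. Medians of lists that moved past the spread between replicates were those of the sugar-sensing factors (-0.14 with sample weights, -0.15 to -0.075 with 1 library left out), the glucose-handling genes (-0.10 at a mean FPKM of at least 5, -0.046 with sample weights, -0.07 to 0.007 with 1 library left out), the Nedd4 family (-0.043 with sample weights), the glucocorticoid genes (-0.28 to -0.23 with 1 library left out), the FoxO list (-0.03 with no filter, -0.14 at a mean FPKM of at least 5, -0.16 to -0.037 with 1 library left out) and the inflammasome (0.067 with no filter); the filters change which members count, and for the other settings the cause was not tested. Beside those above, the replicate block changed the call of Nfkbia (adjusted p = 0.0736, and 0.0224 with the block) and of no other list gene.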

Other observations

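Several genes of the sugar and inflammasome lists were too low to be tested in whole brain. Mlxipl, which encodes ChREBP, stood at 0.111 to 0.229 FPKM in PS and 0.121 to 0.191 FPKM in Control libraries, under MondoA's gene Mlxip in every library. Nlrp3, the sensor of the inflammasome, stood at 0.176 to 0.233 FPKM in PS and 0.117 to 0.161 FPKM in Control libraries, with every PS value above every Control value, a separation noticed after the values were seen, at levels well under the minimum of 1 FPKM and without a test. Hk2, a sugar-responsive hexokinase, stood at 0.690 to 1.05 FPKM in PS and 0.848 to 0.883 FPKM in Control libraries.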
